A study of Procambarus virginalis with 6 samples.

Results

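The 100 features described here were those with the highest level in one group of marbled crayfish (*Procambarus virginalis*) hemocytes, termed G cells, relative to all other hemocytes, out of 72982 features in the count tables and 6305 with at least 50 UMIs (unique molecular identifiers, each standing for 1 captured RNA molecule). G cells were the cells in which 4 defining features together took at least 5% of the UMIs, and cells with 100 to 2000 detected features were used. The 4 defining features were WNGS01001312.121569_1_covsplit, WNGS01063966.1054011_0_covsplit, WNGS01039069.816776_0_covsplit and WNGS01160776.1908630_0_covsplit. They were then removed from all counts, so that they neither belong to the list nor enter the totals. In each library the counts were summed over G cells and over the other cells, scaled to a total of 1000000 (CPM), and turned into the ratio of CPM+10 in G cells to CPM+10 in other cells. Members were chosen by the median of this ratio over the 6 libraries. The ratio therefore describes how the list was made and carries no test here.

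Hemocytes are the circulating blood cells of crustaceans. Granular cells, the most granule-rich of them, store antimicrobial proteins and the enzymes of the melanization cascade, and release them when they meet microbes. The study labels one hemocyte cluster as granular from such immune proteins. The files give features by assembly identifier and do not pair them with gene names, so the label could not be checked against named immune genes and no function is assigned to any member. The cells are therefore called G cells and not granular cells. Of 7 features carried under the granular label in earlier results of these data, 4 define the G cells. The other 3, WNGS01163813.2084876, WNGS01160430.1886216 and WNGS01092210.1251734_1_covsplit, were all members (ranks 4, 16 and 17), but that label came from the same libraries and is not independent of them.

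The series compared 3 KD animals, injected with double-stranded RNA against the DNA methyltransferase gene *Dnmt1*, with 3 Ctrl animals, injected with double-stranded RNA against GFP. All were female, laboratory-bred animals of 1 to 3 years from a clonal species, and hemolymph was taken 28 days post injection (dpi). Each library held the hemocytes of 1 animal. The RNA was injected into the circulation, so the knockdown was not directed at any one hemocyte type, and the *Dnmt1* transcript itself was not analysed here because its feature is not named.

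The libraries differed widely in size. KD1, KD2 and KD3 had 881, 635 and 2869 kept cells, against 5318, 1196 and 622 in Ctrl1, Ctrl2 and Ctrl3, and the tables held between 259605 (KD2) and 2487952 (KD3) UMIs. Some cell barcodes occurred in more than 1 library, and the reason was not tested. Cell barcodes were shared by 261 pairs of kept cells in different libraries, 113 of them between Ctrl3 and KD2 and 110 between KD1 and KD2. Ctrl1 shared none and KD3 shared 1. When each shared barcode was left out of the library with fewer UMIs for it, 209 cells of KD2, 12 of KD1, 18 of Ctrl3 and 2 of Ctrl2 were removed. Ctrl1 stood apart in another way. Its G cells carried 34.6% of their UMIs in the single defining feature WNGS01001312.121569_1_covsplit, against 7.94% to 18.2% in the other libraries, and 39.2% of its G cells had a defining share between 5% and 10%, against 10.5% to 27.5% elsewhere. Since a threshold on a share makes a range and not a type, the number of cells near it matters. Between 4% and 6% lay 319 of the 5318 kept cells of Ctrl1 and 28 of the 635 of KD2. The other libraries, with 622 to 2869 kept cells, had 2 to 20 such cells each.

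G cells made up 4.99%, 6.30% and 17.8% of the cells of KD1, KD2 and KD3 (44, 40 and 512 cells), against 10.4%, 5.85% and 6.91% in Ctrl1, Ctrl2 and Ctrl3 (554, 70 and 43 cells). The 95% binomial intervals (Clopper-Pearson), a measure of counting error alone, ran from 3.65% to 6.65% for the smallest share (KD1) and from 16.5% to 19.3% for the largest (KD3). The groups overlapped. The KD mean of 9.71% exceeded the Ctrl mean of 7.73% by 1.99 percentage points (SD 7.07 in KD and 2.39 in Ctrl, n = 3 each), with p = 0.9 in a two-sided exact permutation test, for which the smallest p that 3 against 3 libraries allow is 0.1. Without KD3 the difference was -2.08 points, so the direction rested on that library.

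Most of the RNA of a G cell came from the defining features and the members. The median UMI count per cell was 1926, 763 and 1697.5 in G cells of KD1, KD2 and KD3, against 1241, 217 and 537 in their other cells. In Ctrl1, Ctrl2 and Ctrl3 it was 601, 2853.5 and 1450 in G cells, against 273.5, 1102.5 and 725 in other cells. With the defining features and the members set aside, the order turned round in 6 of 6 libraries: a G cell held a median of 162 to 811.5 UMIs of all remaining features, against 207 to 1200 in an other cell. CPM is a share of all counts, and the median ratio over all 6305 features was 0.466, 0.434 and 0.733 in KD1, KD2 and KD3 and 0.810, 0.578 and 0.434 in Ctrl1, Ctrl2 and Ctrl3, and not 1.

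Member ratios covered a wide range. Of the 100 median ratios, 21 were above 10, 17 were between 5 and 10, 57 were between 2 and 5 and 5 were under 2. By library, the median member ratio was 5.56 in KD1, 3.07 in KD2 and 3.54 in KD3, against 2.03 in Ctrl1, 5.02 in Ctrl2 and 4.24 in Ctrl3. Ctrl1 gave the lowest value and KD1 the highest, and the groups overlapped. A ratio above 1 was seen in all 6 libraries for 71 members and a ratio above 2 in all 6 for 37, while 22 members had a ratio under 1 in at least 1 library, mostly in Ctrl1 (11 members) or KD2 (10 members). The end of the list was set by the rule and not by a gap in the values. The last members, WNGS01164386.2132076_0_covsplit and WNGS01004374.276196_1_covsplit (ranks 99 and 100), had median ratios of 1.93 and 1.90, and the next in rank, WNGS01001312.121863_0_covsplit and WNGS01163947.2107960, which were left out, had 1.84 and 1.84.

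**Figure D1:**
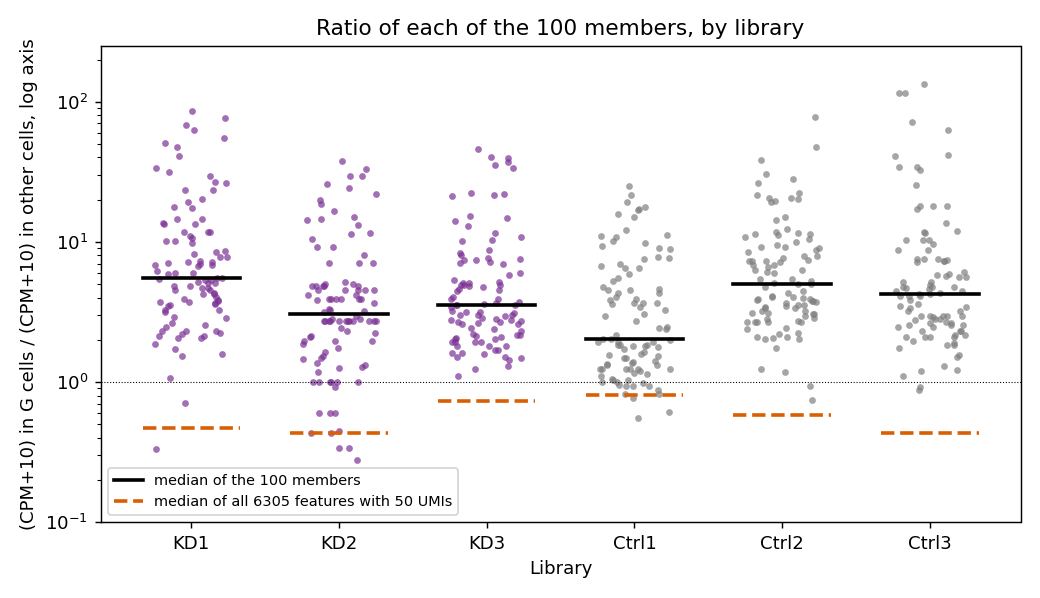
Ratio of CPM+10 in G cells to CPM+10 in other cells (log axis) for each of the 100 members (points) in each library, with the median of the members (solid line) and of all 6305 features with 50 UMIs (dashed line). The member medians lie between 2.03 (Ctrl1) and 5.56 (KD1) and the medians of all features between 0.434 and 0.810, and points under the dotted line at 1 are most numerous in KD2 and Ctrl1.

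Most of the RNA in the list came from few members. The 100 members had 1199729 UMIs in all, of which 5 members held 89.0% and 1 member, WNGS01163813.2084876, held 57.2%. At the other end, 25 members had under 100 UMIs, 48 had 100 to 1000, 18 had 1000 to 10000 and 9 had more than 10000. The median member had 264.5 UMIs in all, against 132 for all 6305 features.

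WNGS01163813.2084876 (rank 4) was the most abundant RNA of the G cells in 5 of the 6 libraries once the defining features were removed. It took 43.2%, 59.8% and 59.5% of the UMIs of G cells in KD1, KD2 and KD3, against 10.8%, 31.9% and 54.7% in Ctrl1, Ctrl2 and Ctrl3. In other cells it took 0.779%, 2.49% and 1.67% in the KD libraries, against 0.724%, 1.04% and 0.863% in the Ctrl libraries. G cells were above other cells in 6 of 6 libraries, with ratios of 55.4, 24.1, 35.6, 14.9, 30.6 and 63.3 in KD1, KD2, KD3, Ctrl1, Ctrl2 and Ctrl3. The KD and Ctrl G cells overlapped because Ctrl3 (54.7%) lay above KD1 (43.2%). From cell to cell the level varied as well: with the defining features in the total, the median G cell of Ctrl1 gave it 3.98% of its UMIs, and the median G cell of the other libraries gave it 24.6% to 51.0%.

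WNGS01163947.2108035_1_covsplit (rank 2) was second in abundance over the 6 libraries and first in Ctrl1. It took 8.83%, 3.93% and 3.53% of G cell UMIs in KD1, KD2 and KD3, against 14.5%, 11.1% and 4.91% in Ctrl1, Ctrl2 and Ctrl3, a range in which Ctrl3 lay below KD1. Its level in the other cells of Ctrl1 stood apart, at 0.864%, against 0.0754% to 0.236% in the other libraries. When each cell was thinned to 150 UMIs, G cells were called again on the thinned counts (604 G cells and 4674 other cells in Ctrl1). Then 65.7% of the other cells of Ctrl1 had at least 1 UMI of this member, against 5.9% to 12.8% in the other libraries. Of the G cells, 79.5% to 93.6% had one in all 6. UMIs from free RNA in the droplets and from the cell itself are not told apart by such shares.

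The remaining 3 of the 5 most abundant members had lower ratios. WNGS01163464.2036754_0_covsplit (rank 35) averaged 2.60% ± 1.10 of G cell UMIs in KD and 4.17% ± 1.5 in Ctrl (SD, n = 3 each), and WNGS01092210.1251734_1_covsplit (rank 17) averaged 2.82% ± 0.565 in KD and 3.11% ± 1.31 in Ctrl. WNGS01005680.405565_0_covsplit (rank 88) was abundant in both kinds of cells, with 1.68%, 1.32% and 1.58% of G cell UMIs in KD1, KD2 and KD3, against 6.28%, 3.84% and 2.49% in Ctrl1, Ctrl2 and Ctrl3. In other cells it had 0.686%, 0.898% and 0.724% in the KD libraries, against 1.72%, 1.84% and 1.32% in the Ctrl libraries. Every KD library lay below every Ctrl library in both kinds of cells.

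The member with the highest median ratio was far less abundant. WNGS01042707.860522_2_covsplit (rank 1) had a median ratio of 59.3, with 4075, 1448 and 953 CPM in G cells of KD1, KD2 and KD3, against 792, 4427 and 1846 CPM in Ctrl1, Ctrl2 and Ctrl3. In other cells it had 13.7 to 39.1 CPM in KD and 3.85 to 46.9 CPM in Ctrl. WNGS01005680.405548 (rank 3, median ratio 35.1) had 2260 to 3973 CPM in G cells of KD and 1050 to 6503 CPM in those of Ctrl. WNGS01163813.2085853_15_covsplit (rank 5, 31.8) was highest in KD3 (6168 CPM in G cells) and lowest in Ctrl2 (565 CPM). In all 3, the spread within a group was as wide as the gap between the groups.

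The rest of the leading 10 were rarer still. WNGS01042707.846585_1_covsplit (rank 6, median ratio 25.6) had 7 to 201 UMIs in G cells of the KD libraries and 6 to 130 in those of the Ctrl libraries, and 0 in the other cells of KD2 and Ctrl1. WNGS01162923.2006641_1_covsplit (rank 7, 24.1), WNGS01085076.1194512_1_covsplit (rank 8, 21.9), WNGS01004374.279622_1_covsplit (rank 9, 20.7) and WNGS01005680.410733_0_covsplit (rank 10, 19.5) had between 431 and 1644 UMIs in all. Each of these 5 members had a ratio above 3 in 6 of 6 libraries. Of the 10 leading members, 9 had their lowest ratio in 1 of only 2 libraries, Ctrl1 or KD2, and the exception was WNGS01163813.2085853_15_covsplit, lowest in Ctrl2.

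**Figure D2:**
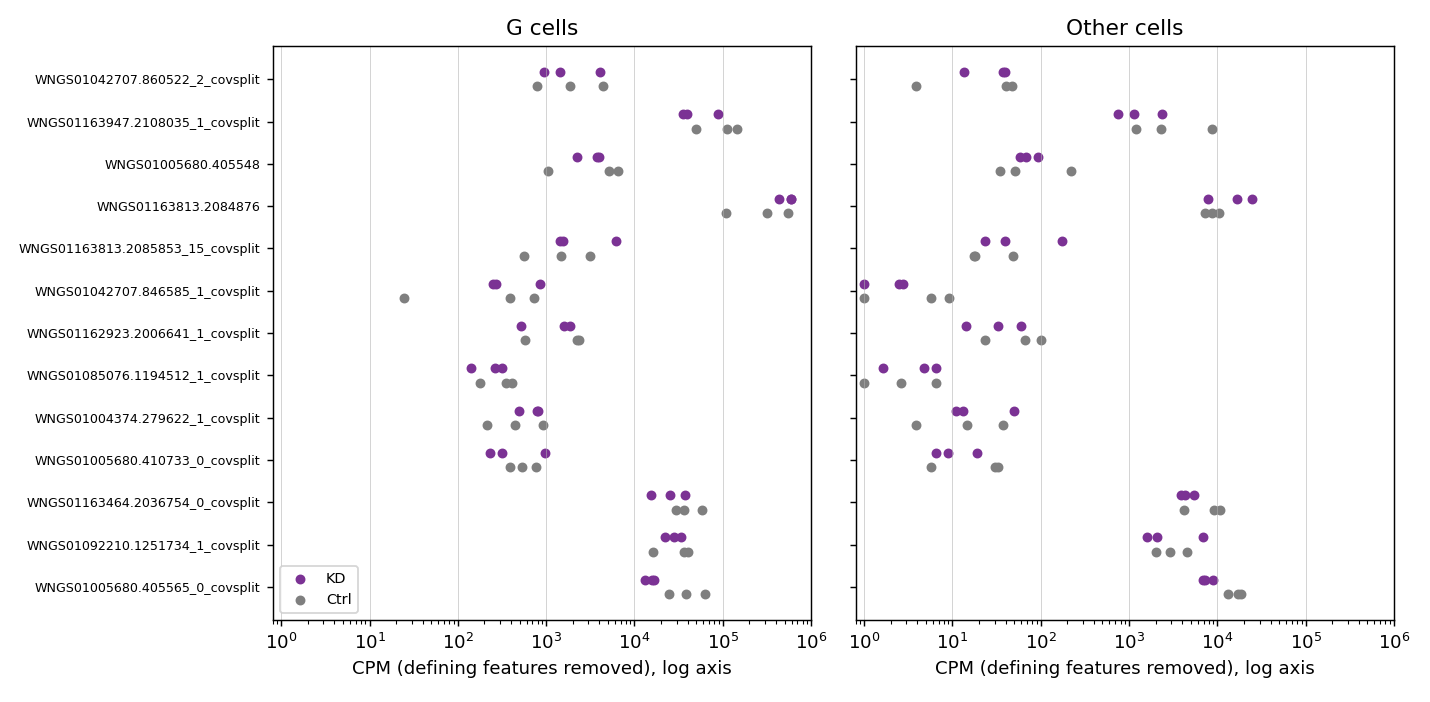
CPM (log axis, defining features removed) of the 10 members with the highest median ratio and the further 3 of the 5 most abundant members, in G cells (left) and other cells (right), with 1 point per library for KD (upper row of each member) and Ctrl (lower row) and values under 1 drawn at 1. The KD and Ctrl points interleave for most members, and WNGS01005680.405565_0_covsplit, at the bottom, has its 3 KD points below its 3 Ctrl points in both panels.

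Summed over the list, members took 66.5%, 72.7% and 75.9% of G cell UMIs in KD1, KD2 and KD3, against 46.1%, 62.5% and 72.1% in Ctrl1, Ctrl2 and Ctrl3. In other cells they took 2.92%, 5.56% and 3.94% in the KD libraries, against 5.59%, 5.60% and 3.64% in the Ctrl libraries. The means in G cells were 71.7% ± 4.77 in KD and 60.2% ± 13.2 in Ctrl (SD, n = 3 each), and the groups overlapped. The sign of the difference rested on 1 member. With WNGS01163813.2084876 left out, the remaining 99 members took 41.0%, 32.1% and 40.5% of the rest of G cell UMIs in KD1, KD2 and KD3, against 39.5%, 45.0% and 38.5% in Ctrl1, Ctrl2 and Ctrl3. The difference of the means was then -3.14 percentage points, where it had been 11.5 with all members. With all members but without Ctrl1, the difference was 4.36 points.

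**Figure D3:**
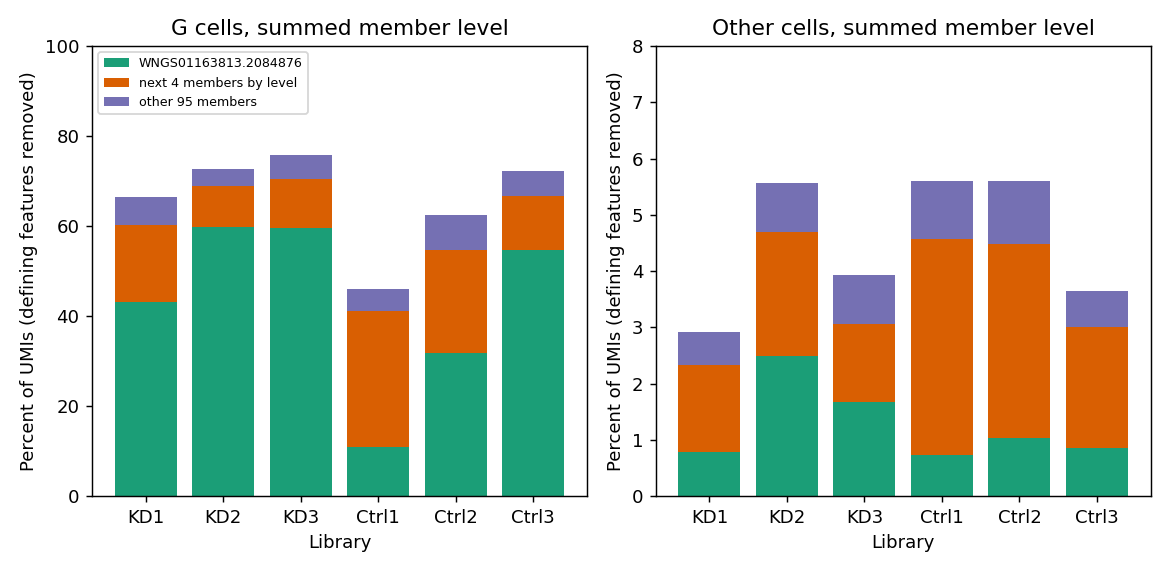
Percent of UMIs taken by the members in G cells (left, axis to 100) and other cells (right, axis to 8) of each library, defining features removed, split into WNGS01163813.2084876, the next 4 members by level and the other 95. The list takes 46.1% (Ctrl1) to 75.9% (KD3) of G cell UMIs and 2.92% to 5.60% in other cells, and the first member takes the largest part of the G cell bars in all libraries except Ctrl1.

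Members were chosen for a higher level above the 5% threshold than below it in these same libraries, so a step in their summed level there follows from the rule, and the values by defining share are a description. In cells with a defining share above 0 and under 1%, the members took 2.98% (KD1), 5.22% (KD2) and 3.09% (KD3) of UMIs, against 6.0%, 4.68% and 3.15% in Ctrl1, Ctrl2 and Ctrl3. From 1% to 2.5% the levels were of the same size, at 1.19% to 5.05% in KD and 3.78% to 4.96% in Ctrl. Just under the threshold, from 2.5% to 5%, they reached 8.23% to 19.9% in KD and 7.03% to 22.1% in Ctrl. Just above it, from 5% to 10%, they were at 49.9% to 63.3% in KD, and at 16.3%, 58.1% and 67.5% in Ctrl1, Ctrl2 and Ctrl3, although this range held only 5 to 54 cells in each library other than Ctrl1. Ctrl1 had the lowest level just above the threshold, with 217 cells in that range. With each cell thinned to 150 UMIs, the levels from 2.5% to 5% were 3.46% to 9.30% in KD and 4.36% to 4.90% in Ctrl. From 5% to 10% they were then 31.9% to 45.4% in KD, and 10.2%, 33.3% and 54.7% in Ctrl1, Ctrl2 and Ctrl3. Thinned cells were grouped again by their thinned share, so the groups held other cells. In Ctrl2, the range from 2.5% to 5% held 185 cells with thinning and 104 without. Each thinned cell also had the same weight in the sum. A change in level is therefore not told apart from a change in the cells of each group. At 20% or more and without thinning, the members took 57.6% of UMIs in Ctrl1 and 68.5% or more in every other library. This range held only 1 cell in KD2 and 5 cells in Ctrl3.

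**Figure D4:**
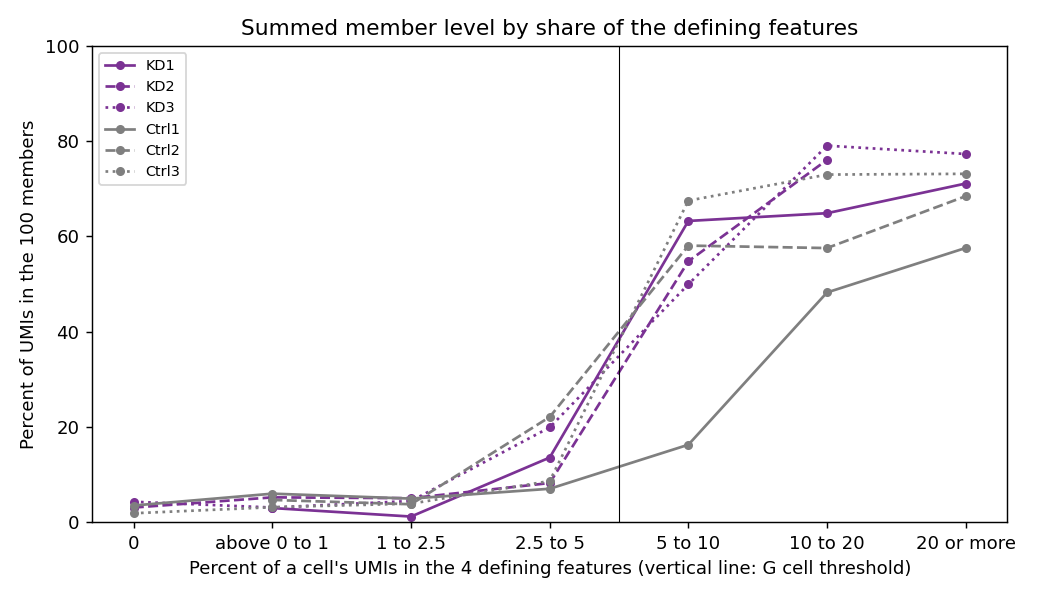
Percent of UMIs in the 100 members (defining features removed) in cells grouped by the share of their UMIs in the 4 defining features, low to high, for each KD (purple) and Ctrl (gray) library, with groups of fewer than 5 cells not drawn. Cells are not thinned here. In 5 libraries the level climbs from 22.1% or less below the 5% threshold to 49.9% or more above it, whereas Ctrl1 reaches 16.3% from 5% to 10% and 57.6% at 20% or more.

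Of 5 features carried as markers of other clusters, 3 had lower levels in G cells in 5 or 6 of the 6 libraries. WNGS01021324.680489_28_covsplit, carried under the semigranular label, was lower in G cells in 6 of 6 libraries, with ratios of 0.0798, 0.0402 and 0.0691 in KD1, KD2 and KD3 and 0.177, 0.0585 and 0.108 in Ctrl1, Ctrl2 and Ctrl3. The 2 features carried under the neuronal precursor label, WNGS01166011.2446490 and WNGS01167840.2551381, were lower in G cells in 5 libraries, whereas in Ctrl1 their ratios were 2.44 and 1.88. Of the 2 carried under the prohemocyte label, WNGS01092210.1271499 was at 0 CPM in both kinds of cells of Ctrl2 and Ctrl3 and gave no order, with ratios of 0.707, 0.606 and 1.19 in KD1, KD2 and KD3 and 0.618 in Ctrl1, and WNGS01092210.1242857 was itself a member (rank 62). WNGS01092210.1242857 had ratios of 6.84, 2.71 and 3.55 in KD1, KD2 and KD3, against 1.10, 6.03 and 2.48 in Ctrl1, Ctrl2 and Ctrl3, and its highest level in other cells was in Ctrl1, at 587 CPM against 19.2 to 137 CPM elsewhere. The part of these markers in the member values was not tested.

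Whether enrichment holds in animals that did not choose the features was tested in both directions. The rule was applied to the 3 Ctrl libraries alone, and the resulting 100 features were tested for a higher level in G cells than in other cells of the 3 KD libraries with edgeR's quasi-likelihood test on summed counts, with library as a block and Benjamini-Hochberg adjustment over all features tested. Of these 100 features, 69 were called higher in G cells (adjusted p under 0.05), 1 was tested and not called, and 30 did not pass the filter on low counts. Of the 2453 features tested, 113 (4.61%) were called higher. Because low features can pass the filter through G cells alone, the test was also run without it, and then 71 of the 100 were called, against 0.324% of 29962 features. In the opposite direction, 58 of 100 features chosen in KD libraries were called higher in G cells of the Ctrl libraries, 6 were not called and 36 did not pass the filter, against 4.41% of 2110 features. Without the filter 64 of the 100 were called, against 0.288% of 32322. Both shares without the filter are over features with 1 or more UMIs, whereas the rule asked for at least 50. They are therefore not a like background for the chosen features. The shares with the filter are not either, since low features could pass it through G cells alone. None of either list was called lower in any of these 4 fits. The G cells were defined by the same 4 features throughout, so the test bears on the features and not on the choice of cells. The Ctrl choice held 91 members of the list, the KD choice held 86, and 78 features were in both choices.

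The fitted log2 fold change of WNGS01163813.2084876, G over other cells, was 6.19 ± 0.59 (SE) in the KD libraries (edgeR adjusted p = 2.36e-23) and 5.81 ± 0.73 in the Ctrl libraries (adjusted p = 0.000126), higher in G cells in 3 of 3 libraries each time. When 1 library was left out the fold change stayed between 5.90 and 6.63 in KD and between 5.07 and 6.61 in Ctrl, while the call was lost without KD3 in KD (adjusted p = 0.433) and without Ctrl3 in Ctrl (adjusted p = 0.157). For WNGS01042707.860522_2_covsplit the values were 7.23 ± 0.52 in KD and 7.0 ± 0.74 in Ctrl. They are given without p, since this feature was named for its ratio in these same 6 libraries. WNGS01163813.2084876 and WNGS01005680.405565_0_covsplit were named for their level in G cells of the same libraries, so their p-values are not independent of that choice. At the low end of the abundant members, WNGS01005680.405565_0_covsplit was higher in G cells by 2.0 ± 0.41 in KD (adjusted p = 3.25e-05) and by 2.16 ± 0.46 in Ctrl (adjusted p = 0.0104), and its call was lost without KD1 in KD (adjusted p = 0.291) and without Ctrl2 or Ctrl3 in Ctrl (adjusted p = 0.333 and 0.627). Its fold change stayed between 1.88 and 2.37 in KD and between 2.11 and 2.24 in Ctrl when 1 library was left out. The fitted values are relative to the scaling. With edgeR's TMM factors the median log2 fold change of all tested features was -0.21 in KD and -0.17 in Ctrl. With scaling by total counts, chosen after seeing the data, the medians were -1.41 and -1.13, and 63 of 100 Ctrl-chosen and 51 of 100 KD-chosen features were called. With that scaling 76 features were called higher and 1427 lower in KD libraries, against 113 higher and 124 lower with TMM (69 higher and 14 lower without KD1, 159 and 261 without KD2, and 82 and 56 without KD3).

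Each library was also read with a list chosen from the other 5, with the minimum of 50 UMIs still taken over all 6. The median ratio of the 100 features so chosen was 5.56, 2.89 and 3.18 when KD1, KD2 and KD3 were held out, against 1.93, 4.89 and 4.13 for Ctrl1, Ctrl2 and Ctrl3. Between 80 (KD2) and 96 (KD1 and KD3) of them had a ratio above 1 in the held-out library, where 12.1% to 21.7% of all 6305 features did.

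No member differed between KD and Ctrl in G cells past the threshold. With edgeR's quasi-likelihood test on counts summed over G cells, 0 of the 62 members that passed the low-count filter were called at an adjusted p under 0.05, and 0 of all 551 features tested (0%). At an unadjusted p under 0.05 there were 0 members, and 8 (1.45%) of all features. DESeq2 likewise called 0 of the 551 features, with 11 at an unadjusted p under 0.05, 1 of them a member. The fitted fold change was above 0 for 31 of the 62 members, against 46.6% of all features tested, and the median log2 fold change was 0.04 over members and -0.05 over all. With scaling by total counts in place of TMM both medians moved down alike, to -0.38 over members and -0.42 over all, with 20 of 62 members and 131 of 551 features above 0 and still 0 called. The members named next had standard errors of about 0.6 to 0.9 on the log2 scale.

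The 3 members with the smallest unadjusted p in each direction were these, so they are not the smallest over both directions together. WNGS01169217.2609857_0_covsplit (rank 65) had 6033, 3143 and 6245 CPM in G cells of KD1, KD2 and KD3, against 952, 2222 and 3834 CPM in Ctrl1, Ctrl2 and Ctrl3, a log2 fold change of 1.60 ± 0.77 (SE; edgeR adjusted p = 0.992). Only KD2, below Ctrl3, made the groups overlap. WNGS01085076.1194512_0_covsplit (rank 11) and WNGS01163949.2121660_1_covsplit (rank 80) had 1.21 ± 0.64 and 1.42 ± 0.90. The value of WNGS01163949.2121660_1_covsplit was 0.35 without KD3 and 3.23 without Ctrl1, and that of WNGS01169217.2609857_0_covsplit lay between 0.97 and 2.40 when 1 library was left out. On the lower side, WNGS01001312.118486_0_covsplit (rank 42) had 387, 283 and 292 CPM in KD, against 3059, 560 and 203 CPM in Ctrl, with a log2 fold change of -1.56 ± 0.90 (adjusted p = 0.992), and this value rested on Ctrl1, without which it was 0.28. WNGS01005680.405565_0_covsplit had -0.99 ± 0.66 and WNGS01165751.2409896_0_covsplit (rank 27) had -1.01 ± 0.73. The most abundant member, WNGS01163813.2084876, had 1.18 ± 0.81 (edgeR adjusted p = 0.992). When 1 library was left out, WNGS01005680.405565_0_covsplit lay between -1.39 and -0.54, WNGS01165751.2409896_0_covsplit between -1.44 and -0.41 and WNGS01163813.2084876 between 0.72 and 2.03.

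**Figure D5:**
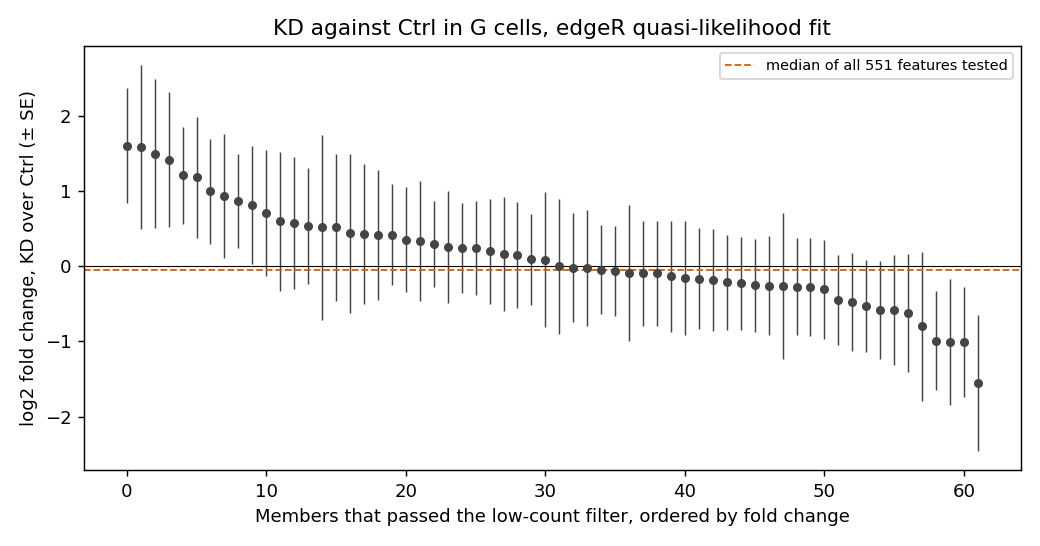
Fitted log2 fold change, KD over Ctrl, with its SE, of the 62 members tested in G cells, in order of size. Of the 62, 31 lie above 0 and 31 below, the ends are at 1.60 and -1.56, and the dashed line marks the median of all 551 features tested at -0.05.

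Counted by whether the groups overlap, no member had a higher CPM in G cells of every KD library than of every Ctrl library, where 0.856% of the 6305 features did. Lower in every KD library were 4 members, where 4.2% of all features were. Besides WNGS01005680.405565_0_covsplit these were WNGS01169217.2609403_23_covsplit, with 1864 ± 243 CPM in KD and 3866 ± 765 CPM in Ctrl, WNGS01169217.2618448, with 2386 ± 637 CPM in KD and 4794 ± 1723 CPM in Ctrl (SD, n = 3 each), and WNGS01164437.2133857, which had 83 UMIs in all. Their count of 4 in 100 was at the level of all features. In other cells 2 members were higher in every KD library, against 1.32% of all features, and 5 were lower, against 1.97%.

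Outside the G cells, edgeR called 0 of 66 members tested and 0 of 6472 features (0%) between KD and Ctrl, and DESeq2 called 0 as well. At an unadjusted p under 0.05 there were 6 members, 5 of them lower in KD, and 116 features (1.79%) in all, and 11 members and 169 features with DESeq2. The fitted fold change was above 0 for 20 of the 66 members, against 50.2% of all features, and the median was -0.46 over members and 0.00 over all. Without Ctrl1, 31 of 73 members were above 0 and the median was -0.14, whereas over the 4 libraries that share barcodes, which also lack Ctrl1, 18 of 63 were above 0 and the median was -0.40. WNGS01163947.2108035_1_covsplit, with its high level in the other cells of Ctrl1, had a log2 fold change of -2.28 ± 1.11 (adjusted p = 1.0), and WNGS01163813.2084876 had 1.04 ± 0.96.

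Over all cells summed, 0 of 96 members and 0 of 6748 features (0%) were called by edgeR, and 0 by DESeq2. At an unadjusted p under 0.05 there were 4 members and 117 features (1.73%), and 8 members and 157 features with DESeq2. The fitted fold change was above 0 for 56 of the 96 members, against 47.2% of all features, with a median of 0.14 over members and -0.04 over all. In such sums, more G cells and more RNA per G cell cannot be told apart. The direction was not stable. Without KD3 the member median was -0.69, with 27 of 97 members above 0, and without Ctrl3 it was -0.11, with 45 of 98 above 0. Over the 4 libraries that share barcodes it was -0.35, with 24 of 90 above 0. With scaling by total counts the median was also below 0, at -0.19, with 45 of 96 members above 0.

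The ratio of G to other cells itself was compared between KD and Ctrl in 1 fit over 12 sums, with library as a block. No member was called, and 0 of the 3239 features tested (0%) were, by either edgeR or DESeq2. At an unadjusted p under 0.05 there were 8 members, all with a higher ratio in KD, against 2.84% of all features, and 3 members and 28 features with DESeq2. The fitted difference was above 0 for 80 of 96 members tested, against 47.9% of all features, with a median of 0.40 over members and -0.05 over all. Low features can pass this filter through G cells alone. Without the filter, the difference was above 0 for 85 of 100 members and for 20369 of 36572 features. The medians were then 0.45 over members and 0.28 over all. With the filter and without Ctrl1 it was above 0 for 57 of 99 members, with a median of 0.18. With scaling by total counts it was above 0 for 67 of 96 members, with medians of 0.22 over members and -0.24 over all. The member with the smallest p, WNGS01004946.333826_0_covsplit (rank 13), had ratios of 41.0, 14.7 and 7.16 in KD1, KD2 and KD3, against 0.992, 20.4 and 13.5 in Ctrl1, Ctrl2 and Ctrl3. Its log2 difference of ratios was 2.19 ± 0.70 (edgeR adjusted p = 0.981). The groups overlapped, and the ratio of Ctrl1 was far below those of the other 5 libraries.

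Member identifiers begin with the scaffold, the assembled stretch of genome on which a feature lies, followed by a model number. The members lay on 52 scaffolds, 33 of which held 1 member each, and 67 members shared a scaffold with another. Among the 6305 features, 86.1% lay on a scaffold with another of them. These shares cannot be compared, since sharing is more likely in a larger set, and whether members lie together was not tested. The most members, 8 of 140 features with 50 UMIs, lay on WNGS01004946, followed by 7 of 159 on WNGS01042707. On WNGS01163813, which holds the most abundant member, 4 of 39 features (10.3%) were members. No member shared a model number with a defining feature. On WNGS01001312, the scaffold of the first defining feature, 5 of 371 features (1.35%) were members. The suffix covsplit in the identifier was carried by 84% of members and 84.5% of all features with 50 UMIs.

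Among the 6305 features, 13 pairs of members were next to each other by model number on their scaffold, out of 4866 such neighbouring pairs (0.267%). Whether this is more than an even spread of the members would give was not tested. On WNGS01004946, the scaffold with the most members, the members WNGS01004946.333786_0_covsplit and WNGS01004946.333826_0_covsplit, parted only by WNGS01004946.333816_0_covsplit, had 1036, 600 and 143 CPM and 877, 424 and 91.0 CPM in G cells of KD1, KD2 and KD3, against 127, 968 and 329 CPM and 36.8, 767 and 360 CPM in Ctrl1, Ctrl2 and Ctrl3. Both were highest in KD1 and Ctrl2 and lowest in KD3 and Ctrl1. WNGS01004946.327884_0_covsplit, elsewhere on the scaffold, was highest in Ctrl1 (310 CPM) and ranged from 62.6 to 148 CPM in the other libraries. The other 4 members of the scaffold, WNGS01004946.363298, WNGS01004946.327309_0_covsplit, WNGS01004946.352848 and WNGS01004946.352852, ranked between 37 and 86. How the counting treated reads of neighbouring or duplicated models was not examined, so the values of single neighbours are uncertain.

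The 22 members with a ratio under 1 in some library had 56 to 1234 UMIs in all. The lowest ratios in any library were 0.277 for WNGS01004946.352848 in KD2, 0.335 for WNGS01109635.1376987_0_covsplit in KD1, 0.338 for WNGS01163813.2085969_4_covsplit and for WNGS01042707.849850_0_covsplit in KD2, and 0.434 for WNGS01164386.2132076_0_covsplit and for WNGS01165751.2424037_0_covsplit in KD2. These 6 had 61 to 322 UMIs in all, and each had 0 UMIs in the G cells of the library concerned. In KD2, with 40 G cells and 28314 G cell UMIs without the defining features, 1 UMI alone made 35.3 CPM.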

How the data were processed

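Hemocytes of 6 animals were profiled as single cells on the 10x platform, 1 library each (KD1 to KD3, Ctrl1 to Ctrl3). The values are UMI counts per feature and cell, made and deposited by the authors with Cell Ranger 7.0.0 according to the file headers (4.0.0 in the submitters' processing notes, which also name Seurat 4.3.0). Intronic reads were included and no cell number was forced. The genome build is not given in the sources used here.

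Cells with 100 to 2000 features were kept (no cell exceeded 2000), and no doublet caller was run. The members, the gene lists and the tests were chosen with earlier results of these data known. G cells, members and ratios were derived as described above. Total UMIs per library ranged from 259605 to 2487952. Intervals cover counting error only.

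Counts were summed per library and kind of cell and tested with edgeR 4.0.16 (TMM, filterByExpr, quasi-likelihood test, Benjamini-Hochberg adjustment over all features tested, adjusted p under 0.05) in R 4.3.3, with DESeq2 1.42.0 as an alternative. KD and Ctrl were compared without a block, and G and other cells with library as a block. Each library is 1 animal. The scripts were tested on simulated data. Python 3.11.15, NumPy 2.4.6, pandas 2.3.3, SciPy 1.17.1 and matplotlib 3.10.9 were used for the rest.

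Named by rule were the defining features, the 10 members with the highest median ratio, the 5 with the highest mean CPM in G cells, those at the edge of the list, those on the scaffold with most members, the 3 members with the smallest unadjusted p in each direction between KD and Ctrl in G cells, 5 members with a ratio under 1, and the markers. Members whose groups did not overlap, a tied member under 1 and the member with the smallest p for the difference of ratios were named after their values were seen. Alternatives were other thresholds, pseudocounts, minimums and scalings, thinning to 150 UMIs, no filter, and leaving out each library, shared barcodes or the largest member.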

Additional observations from a re-analysis of the deposited data

How the results depend on the processing

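Most results kept their direction and their side of the threshold. Without the filter on low counts, edgeR called 1 feature between KD and Ctrl in G cells, 9 in other cells and 13 in all cells, none of them a member. For the G to other ratio, leaving out 1 library gave 0 to 1 calls. The difference in the share of G cells was -0.736 points over the 4 libraries that share barcodes, and -2.08 to 4.34 points when 1 library was left out. The summed member level in G cells differed by -3.14 points without the largest member. Of the 100 members, 53 stayed in the list with a minimum of 200 UMIs in all and 64 after thinning. WNGS01001312.118486_0_covsplit in G cells ranged from -2.12 to 0.28 when 1 library was left out. Scaling by total counts, chosen after seeing the data, called 61 features higher and 736 lower in G cells of the Ctrl libraries, against 93 and 59 with TMM, 51 and 6 with TMM without Ctrl2, and 155 and 166 without Ctrl1. With the replicate number as a block, 0 features were called between KD and Ctrl in each kind of cell, and the G share difference of 1.99 points had an exact permutation p of 0.75, where 0.25 is the smallest possible. Same-numbered samples correlated at -0.254, 0.0705 and 0.0341, and not every sample correlated best with its own number. With so few samples, these values cannot decide whether the numbers pair them. Members with few UMIs in the G cells of small libraries limit the precision.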
